A study of Arabidopsis thaliana with 8 samples.

Results

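The genes described here gave bright array signals in both the wild type and a photosystem I mutant of Arabidopsis thaliana. The array held 3439 features, of which 692 were assigned to exactly 1 gene. Each feature was ranked within each array as a percentile of all features, and a feature was selected on these percentiles when its mean was above 85 over the 4 WT arrays and also above 85 over the 4 psah2k arrays. In all, 327 features passed both thresholds, 60 of them with 1 gene. After 8 of these photosynthesis genes were left out by name (PSAN, PSBY, PSBW, PSB27, LHB1B2, NdhS, PRK and AT1G74470), 52 genes remained. AT5G65220, also left out by name, did not pass the psah2k threshold.

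Total RNA came from 4 wild-type (WT) samples and 4 samples of a double mutant, psah2k, all in ecotype Columbia 0, and each sample had its own 1-channel array. The labels describe psah2k as lacking 2 photosystem I proteins, which the line name gives as subunits H and K and the description as E1 and K. The sources used here give no organ, age, light conditions or alleles. Separate plants are not mentioned either, so each p-value reflects the spread of these samples only, and that spread may be technical. Whether fewer cells of a type or less RNA per cell lay behind a lower signal cannot be told apart in such bulk samples.

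Photosystem I sits in the thylakoid membrane of chloroplasts and passes electrons from plastocyanin to ferredoxin. Most proteins of the chloroplast are encoded in the nucleus, made in the cytosol and imported, so that nuclear transcripts can respond to the state of the photosynthetic apparatus. Bright array features of green tissue typically include light-harvesting and carbon-fixation genes, together with genes needed in every cell. The brightness of a feature also depends on its probe, so the order of genes within an array is not an order of transcript amounts, and each gene is compared here only with itself.

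The levels chose the 52 genes and are therefore a description. Mean percentiles ran from 85.1 to 99.8 in WT and from 86.4 to 99.7 in psah2k. Of the 52, 18 were above the 95th and 5 above the 99th percentile in both genotypes, and 46 were above 85 on every single array. The lowest value was 81.7, on psah2k 4 for AT4G22190 (this gene was picked out after its values were seen). No member was listed at 0 on any array, and none reached the ceiling of about 100 of the deposited scale, the highest member value being 65.1.

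**Figure D1:**
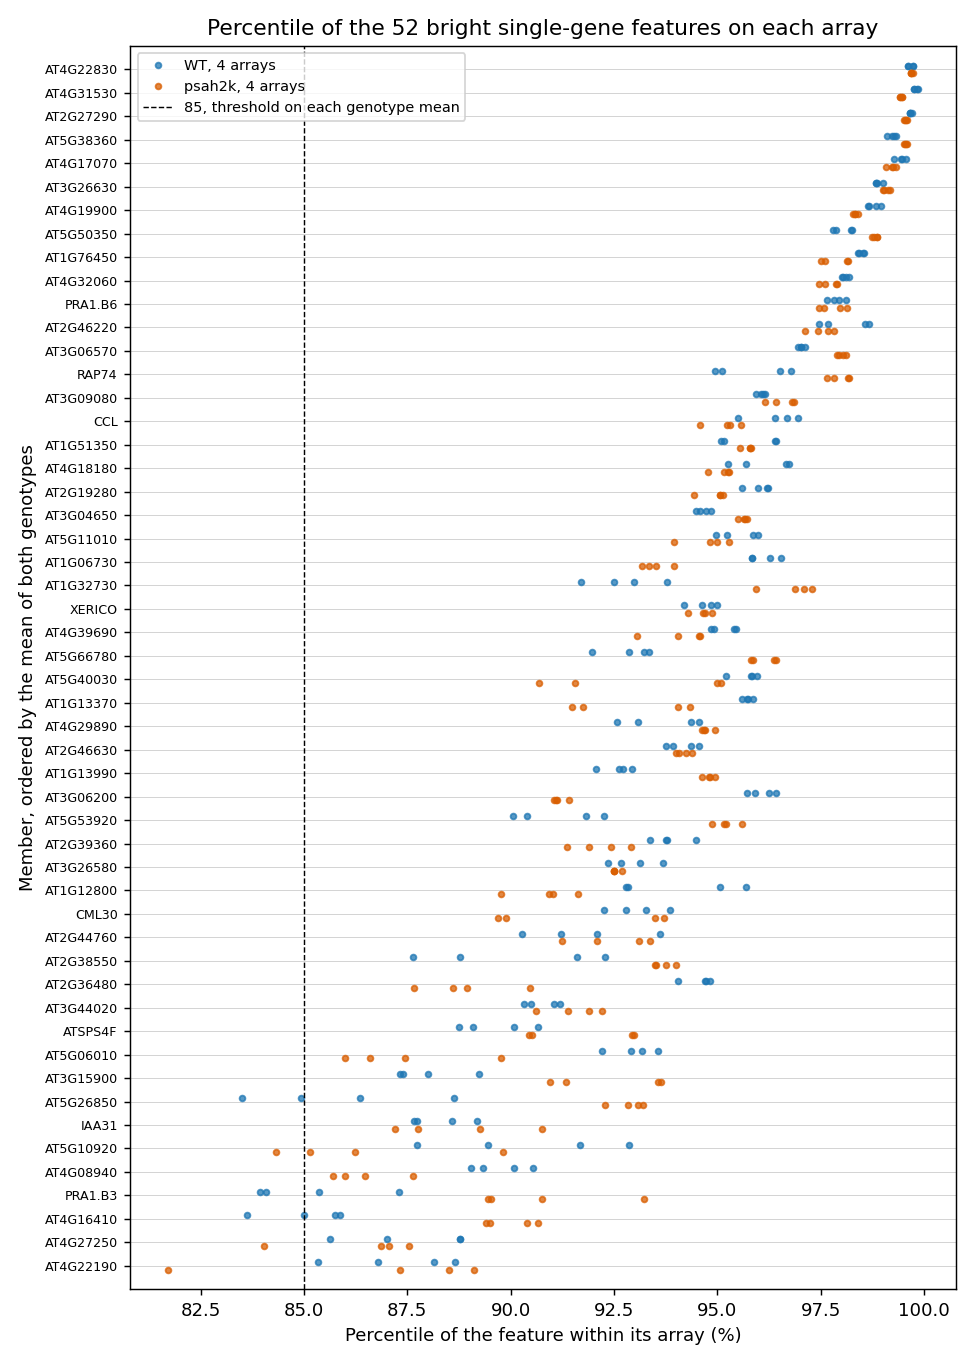
Percentile of each of the 52 genes within each array (x axis, percent of 3439 features), ordered by the mean of both genotypes (y axis). Each gene has 4 blue WT points and 4 orange psah2k points, and the dashed line marks the threshold of 85 on the genotype means. At the top the points of both genotypes lie close together, and the genes with means between 85 and 96 spread further apart.

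Signals as a whole were distributed differently in WT and psah2k. Array medians of deposited intensity ran from 0.304 to 0.336 in WT and from 0.0506 to 0.0582 in psah2k, and between 448 and 472 features were listed at 0 on WT arrays against 739 to 1014 on psah2k arrays. The bright end moved less. The 85th percentile lay at an intensity of 0.866 to 0.976 in WT and 0.360 to 0.446 in psah2k. The median intensity of the 52 genes lay between 1.99 and 2.14 in WT and between 1.497 and 1.91 in psah2k, while their median percentile lay between 94.8 and 94.95 and between 94.5 and 94.8. Their summed intensity made up 8.93% to 9.81% of the summed intensity of a WT array and 10.4% to 11.0% of that of a psah2k array.

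**Figure D2:**
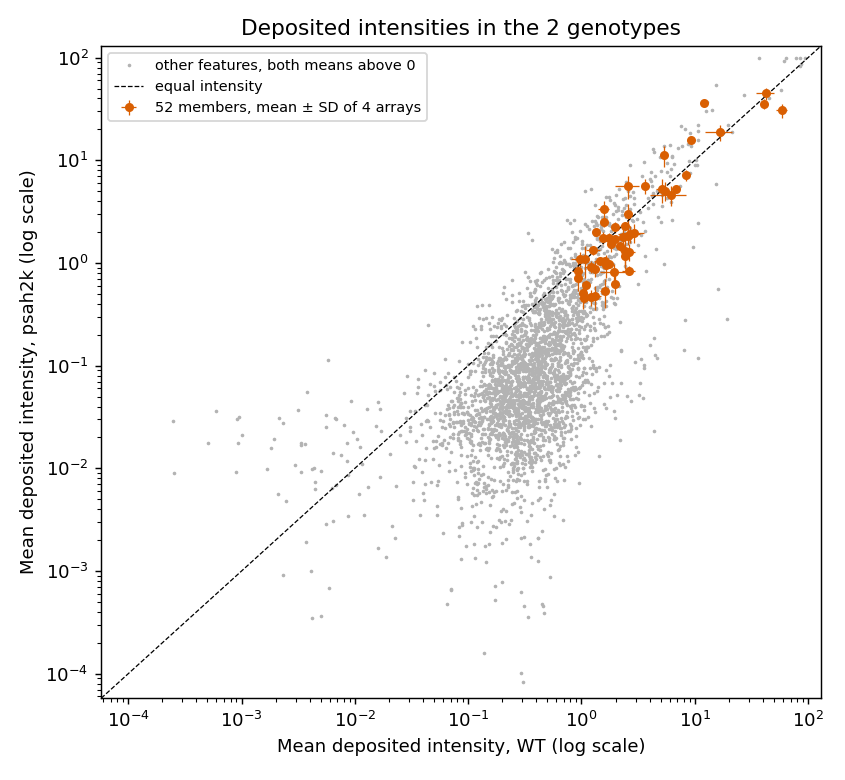
Mean deposited intensity in psah2k (y axis) against WT (x axis), both on log scales without units. Grey points are the other features with both means above 0, orange points are the 52 genes with bars of 1 SD over 4 arrays, and the dashed line marks equal intensity. The bulk of the grey points lies below the line, and the 52 genes lie on both sides of it.

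Because the distributions differed, the genotype difference of a gene depended on how the arrays were scaled. The difference was tested with limma on log2 intensities after quantile normalization, with Benjamini-Hochberg adjustment over all 2353 features tested and a threshold of 0.05, and was recomputed under 3 other scalings: no scaling (as deposited), a shift of every array to a common median, and a shift to a common upper quartile. Over all tested features the median log2 fold change (psah2k minus WT) stood at −0.12 with quantile normalization, at −1.77 without scaling, at 0.18 with median centring and at −0.53 with upper quartile centring. For the 52 genes it stood at −0.28, −0.38, 1.56 and 0.85 in the same order. The 3 scalings other than quantile normalization differ only in a shift shared by the features of an array, and nothing is read from the position of the 52, since the rule asks for high values in psah2k.

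After quantile normalization limma called 33 of the 52 genes, 11 higher and 22 lower in psah2k. Over the whole array 53.0% of the tested features were called, 26.3% as higher and 26.6% as lower. The rule used the levels in both genotypes and so limits how far a gene can differ, to 15 percentile points, and nothing is read from the count. Its split followed the scaling: 8 were called higher and 23 lower as deposited (7.31% and 73.0% of all tested features, with 8 genes entirely above and 24 entirely below the WT arrays in deposited intensity, beside 5.21% and 64.8% of all features), 48 and 0 after median centring (34.7% and 16.8%), and 37 and 2 after upper quartile centring (24.1% and 33.6%). All 22 genes called lower after quantile normalization were above 0 after median centring, and after upper quartile centring only 6 of them stayed below 0 (AT2G36480, AT5G06010, AT3G06200, AT5G10920, AT4G08940 and AT1G12800). Every lower value below is read with that limit. When values of 0 were kept as the smallest positive value of the array before quantile normalization, instead of being treated as missing, 14 were higher and 13 lower (31.2% and 14.3%). The median log2 fold change of the 52 was then −0.05 instead of −0.28, and that of all tested features 0.13 instead of −0.12. With values of 0 as missing, fold changes thus lay lower in psah2k, and lower values below are read with this limit too. Without WT 1, or without WT 2, 7 were called higher (22.6% of all features tested in each case). With numbers 1 and 2 of both genotypes alone, a choice made after seeing the data, 6 were higher and 25 lower (24.2% and 22.7%), and with numbers 3 and 4 alone 6 and 9 (19.6% and 15.6%).

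**Figure D3:**
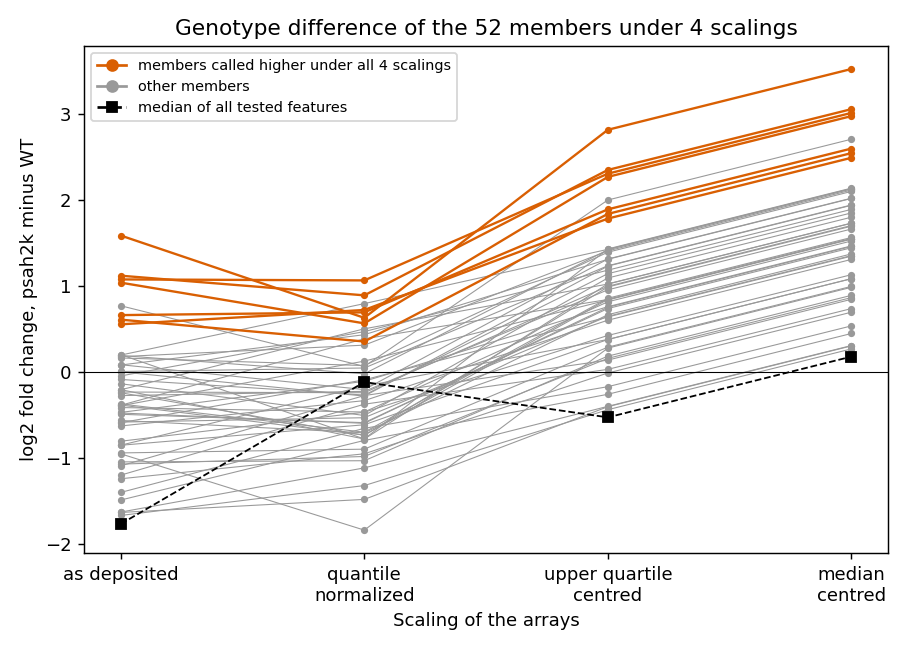
Log2 fold change (psah2k minus WT, y axis) of the 52 genes under 4 scalings of the arrays (x axis), 1 line per gene. Orange lines are the 7 genes called higher under all 4 scalings, grey lines the other genes, and black squares the median of all tested features. Most grey lines cross 0 between the scalings, and 13 lines in all, the 7 orange ones among them, stay above it.

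Called higher under all 4 scalings were 7 of the 52 genes, beside 5.95% of all tested features, and called lower under all 4 were 0, beside 15.6%. The 7 genes were AT5G38360, AT5G50350, AT3G06570, RAP74, AT1G32730, AT5G66780 and AT5G53920. Both centrings shift every deposited value of an array alike and raise all fold changes relative to those deposited. The 7 are therefore those called higher as deposited and after quantile normalization. The rule asks for high values in psah2k and so limits falls without excluding them. Nothing is read from the count of 7 or that of 0, since the rule used the levels. With numbers 1-2 and 3-4 of each genotype averaged first, AT1G32730 alone of the 7 passed.

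AT5G38360, described in Arabidopsis as an alpha/beta-hydrolase family gene, had the clearest rise of the brightest group. In array order 1 to 4, WT read 11.5, 12.6, 12.2 and 11.8 in deposited intensity, and psah2k read 35.6, 38.8, 34.9 and 35.4. Every psah2k array was far above every WT array, and the spread within a genotype was small. The means were 12 ± 0.471 and 36.2 ± 1.78 (SD, n = 4 each), a 3.0-fold difference. The log2 fold change was 1.59 as deposited, but 0.63 after quantile normalization (SE 0.159, limma adjusted p = 0.0122). With averaged pairs the adjusted p was 0.105.

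AT5G50350 was at 5.21, 5.04, 5.65 and 5.46 in WT and at 13.5, 13.3, 8.61 and 9.35 in psah2k. The psah2k arrays fell into a higher pair, 1 and 2, and a lower pair, 3 and 4, both above all WT arrays. Its mean rose 2.09-fold, from 5.34 ± 0.268 to 11.2 ± 2.56, and quantile normalization gave a log2 fold change of 0.57 (SE 0.139, adjusted p = 0.0109).

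RAP74, which encodes the large subunit of the general transcription factor TFIIF that recruits RNA polymerase II to promoters, showed the same pairing in both genotypes. WT intensities were 3.27, 2.98, 2.04 and 2.07, and those of psah2k 6.84, 6.84, 4.21 and 4.65. The lowest psah2k array was above the highest WT array. Its mean rose 2.18-fold (log2 0.89 after quantile normalization, SE 0.196, adjusted p = 0.00655), and its mean percentile went from 95.8 to 98.

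AT1G32730 had 1.77, 1.70, 1.40 and 1.47 in WT and 2.56, 3.83, 3.25 and 3.83 in psah2k. Among the 52 genes it had the largest log2 fold change after quantile normalization, 1.07 (SE 0.208, limma adjusted p = 0.00372), and it was 1.08 as deposited. Leaving out single arrays moved it between 0.91 and 1.19.

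Smaller rises were seen for the other three. AT5G66780 was at 1.41 to 1.73 in WT and 2.17 to 2.91 in psah2k (log2 0.69, adjusted p = 0.00374). AT5G53920, related to the enzymes that methylate ribosomal protein L11, was at 1.28 to 1.44 and 1.77 to 2.19 (log2 0.72, adjusted p = 0.00510). AT3G06570, a kelch-repeat gene, was at 3.52 to 3.79 and 4.79 to 6.54 (log2 0.35, adjusted p = 0.0205). It missed the threshold without any one of the 4 WT arrays (adjusted p = 0.0532 to 0.0591). With the replicate number as a block in the fit it missed it too (adjusted p = 0.0686). In all 3 the arrays of the genotypes did not overlap.

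Among the 8 genes highest by mean percentile, AT4G31530 had the largest fall in intensity. This gene encodes a protein with a Rossmann fold that binds NAD(P). It was at 63.4, 65.1, 52.7 and 54.3 in WT and at 34.3, 34.9, 26.4 and 26.8 in psah2k. All psah2k arrays were below all WT arrays, and in both genotypes arrays 1 and 2 were brighter than 3 and 4. The mean went from 58.9 ± 6.27 to 30.6 ± 4.63, 1.93-fold lower. The log2 fold change was −1.84 after quantile normalization (SE 0.115, limma adjusted p = 2.56e-05) and −0.95 as deposited, but 0.98 after median and 0.28 after upper quartile centring. Its mean percentile was 99.8 ± 0.0436 in WT and 99.4 ± 0.0336 in psah2k.

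AT4G22830, annotated as a YCF49-like protein gene, had nearly equal values. WT arrays read 50.0, 48.6, 37.9 and 34.3, and psah2k arrays 50.7, 49.0, 42.4 and 37.9. The genotypes overlapped, and within each the same order of arrays was seen. On the log2 scale the difference was −0.20 after quantile normalization (SE 0.189, adjusted p = 0.390) and 0.08 as deposited, which does not show that the levels were equal.

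AT2G27290, annotated as a relative of the FAM210 membrane proteins, was at 40.4, 43.8, 38.9 and 39.6 in WT and at 37.0, 40.2, 31.2 and 33.3 in psah2k. Psah2k array 2 reached into the WT range and the others lay below it. The log2 fold change was −0.78 after quantile normalization (adjusted p = 0.000836), −0.20 as deposited (adjusted p = 0.198) and 1.73 after median centring.

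AT4G17070, a gene of the peptidyl-prolyl isomerase type, which helps proteins to fold, turned sign between scalings. Its intensities were 16.3, 17.5, 11.1 and 22.0 in WT and 20.1, 21.3, 14.0 and 20.5 in psah2k. Array 3 was lowest in both genotypes, and the ranges overlapped. Although its deposited mean was 1.13-fold higher in psah2k, quantile normalization called it lower (log2 −0.78, adjusted p = 0.0139), and with values of 0 kept the call was lost (adjusted p = 0.0521). It was the 1 gene of the 22 called lower whose deposited mean was not lower in psah2k.

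AT3G26630, a pentatricopeptide repeat gene of the kind that bind organelle RNA, was at 9.96, 9.88, 8.99 and 8.45 in WT and at 16.3, 16.4, 15.6 and 15.1 in psah2k. No arrays overlapped, and the means differed 1.70-fold. As deposited it was called higher (log2 0.77, adjusted p = 0.000921), but after quantile normalization its log2 fold change was 0.07 (adjusted p = 0.690).

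AT4G19900, an alpha-1,4-glycosyltransferase family gene, had 8.49, 8.26, 8.54 and 8.42 in WT and 8.10, 7.52, 6.24 and 6.79 in psah2k. Every psah2k array was below every WT array, with more spread in the mutant. Its log2 fold change was −0.74 after quantile normalization (adjusted p = 0.00375), −0.24 as deposited (adjusted p = 0.131) and 1.70 after median centring.

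**Figure D4:**
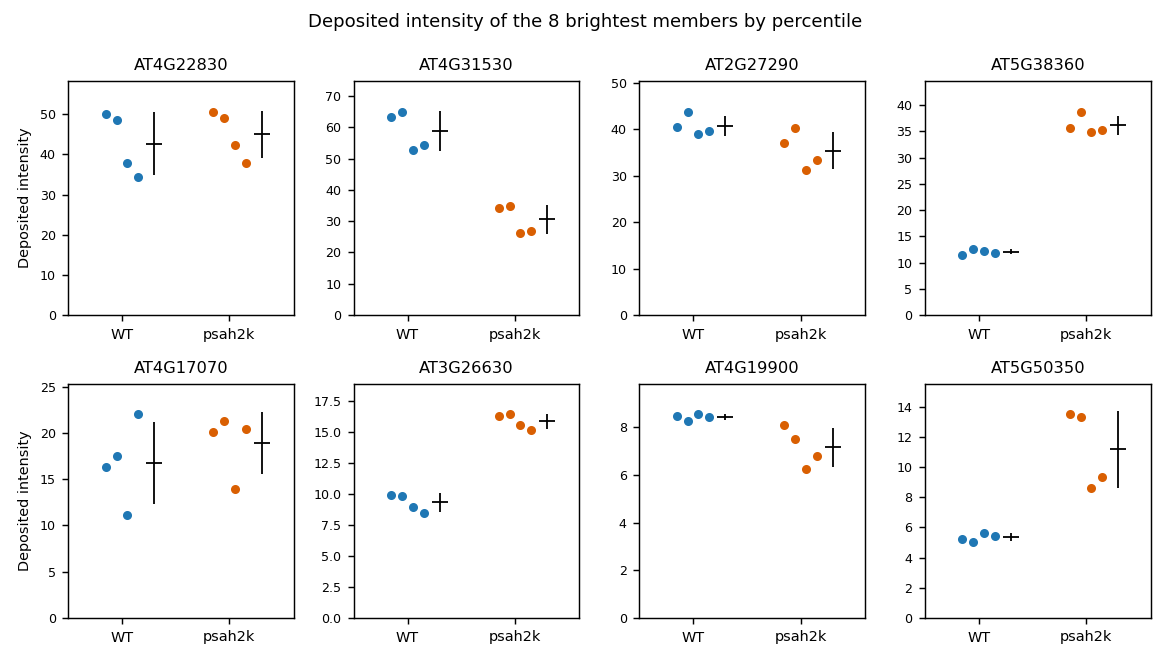
Deposited intensity (y axis, linear from 0, without units) of the 8 genes highest by mean percentile, with 1 point per array in the order of replicate numbers 1 to 4. Blue is WT, orange psah2k, and the black bars are mean and SD of 4 arrays. AT5G38360, AT3G26630 and AT5G50350 have all psah2k points above the WT points, and AT4G31530 and AT4G19900 have all below.

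Percentiles count the features listed at 0 and do not change with the scaling of an array, but they are the values that selected the genes, so their differences are a description. By mean percentile 23 of the 52 genes were higher and 29 lower in psah2k, with a median difference of −0.10 percentile points, and 25 differed by under 1 point. A difference under 1 point does not mean a small difference in intensity. AT5G38360 differed by 0.32 points with a 3.0-fold higher deposited mean in psah2k, and AT4G31530 by −0.36 points with a 1.93-fold lower one. The largest differences in percentile are therefore not the largest in intensity. The arrays of the genotypes did not overlap for 15 genes that were higher and 16 that were lower, beside 32.8% and 21.4% of all features. When limma was run on percentiles over all 3439 features, 12 of the 52 were called, 7 higher and 5 lower, beside 25.4% called higher and 19.0% called lower over the whole array. Nothing is read from that count, since the rule used the percentiles.

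The 6 largest rises in percentile were of AT5G26850, PRA1.B3, AT4G16410, AT3G15900, AT5G53920 and AT1G32730. AT5G26850 went from 86.4, 88.6, 84.9 and 83.5 in WT to 93.2, 92.8, 92.3 and 93.1 in psah2k, a difference of 6.99 points. Its deposited intensities overlapped, at 0.823 to 1.16 and 0.877 to 1.27, and its log2 fold change was 0.20 as deposited (adjusted p = 0.345) and 0.80 after quantile normalization (adjusted p = 0.00373).

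PRA1.B3, one of the prenylated RAB acceptor genes whose products act in vesicle traffic, went from 87.3, 84.1, 83.9 and 85.4 to 93.2, 89.4, 89.5 and 90.8. Array 1 was the highest of each genotype, and all psah2k percentiles were above those of WT. On intensities it was called higher after quantile normalization (log2 0.50, adjusted p = 0.0491) and was at −0.21 as deposited, and the call was lost without any single WT array or without psah2k 1, 3 or 4 (adjusted p = 0.0501 to 0.116). PRA1.B6, of the same family, was at a mean percentile of 97.9 and 97.8, with a log2 fold change of −0.28 (adjusted p = 0.113).

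AT4G16410 is the 1 gene of the 52 called in opposite directions as deposited and after quantile normalization. Its intensities were 0.888, 0.976, 0.914 and 0.922 in WT and 0.694, 0.750, 0.681 and 0.706 in psah2k, all lower in the mutant, while its percentiles were 83.6, 84.996, 85.9 and 85.8 in WT and 89.5, 89.4, 90.4 and 90.7 in psah2k, all higher in the mutant. The log2 fold change was −0.39 as deposited (adjusted p = 0.0174) and 0.39 after quantile normalization (adjusted p = 0.0444). The second of these calls was lost without any one WT array or without psah2k 3 or 4 (adjusted p = 0.0685 to 0.108).

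AT3G15900 had percentiles of 87.4, 88.0, 87.3 and 89.2 in WT and 93.6, 93.6, 91.0 and 91.3 in psah2k, with intensities of 1.40, 1.45, 0.727 and 0.792 on psah2k arrays 1 to 4 against 0.998 to 1.12 in WT. Psah2k arrays 1 and 2 were above and arrays 3 and 4 below the WT range of intensity. On the log2 scale it was at 0.47 after quantile normalization (adjusted p = 0.0290) and −0.05 as deposited, and the call was lost without WT 1, 2 or 3 or psah2k 1 or 2 (adjusted p = 0.0507 to 0.0750). AT5G53920 and AT1G32730, described above, gained 4.08 and 4.06 points.

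The 6 largest falls in percentile were of AT2G36480, AT5G06010, AT3G06200, AT5G10920, AT4G08940 and AT1G12800. AT2G36480 was at intensities of 2.03, 1.86, 1.99 and 1.96 in WT and 0.778, 0.693, 0.484 and 0.557 in psah2k. That is 3.13-fold lower, and the percentile fell by 5.66 points. The log2 fold change was −1.32 after quantile normalization (SE 0.122, limma adjusted p = 0.000113), −1.67 as deposited and −0.44 after upper quartile centring, but 0.27 after median centring.

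AT3G06200, which encodes a guanylate kinase of organelles, the enzyme that turns GMP into GDP, was at 2.88, 2.93, 2.30 and 2.38 in WT and 0.894, 0.937, 0.742 and 0.805 in psah2k. The genotypes were far apart and the spread within each was small, with percentiles of 96.1 ± 0.319 and 91.2 ± 0.169. Its log2 fold change was −1.48 (SE 0.125, adjusted p = 7.43e-05), −1.63 as deposited and −0.40 after upper quartile centring, but 0.30 after median centring, where it missed the threshold (adjusted p = 0.0549).

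AT5G06010 was at 1.70, 1.76, 1.43 and 1.53 in WT and 0.492, 0.780, 0.394 and 0.475 in psah2k, with psah2k 2 the nearest to WT. It was 3.0-fold lower, with a log2 difference of −1.11 (adjusted p = 0.000471), −1.63 as deposited and 0.31 after median centring. AT2G36480, AT3G06200 and AT5G06010 were also called lower with pairs of arrays averaged first, with adjusted p of 0.0150, 0.0148 and 0.0199.

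AT4G08940 had 1.20, 1.20, 1.20 and 1.25 in WT and 0.437, 0.592, 0.417 and 0.414 in psah2k. The WT values hardly varied, and the genotypes did not overlap. After quantile normalization the log2 fold change was −0.65 (adjusted p = 0.00257), −1.40 as deposited and 0.54 after median centring, where it was called higher.

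AT1G12800, a gene for a plastid protein with an S1 RNA-binding domain, was at 2.21, 2.49, 1.53 and 1.53 in WT and 0.962, 0.928, 0.621 and 0.741 in psah2k. Arrays 1 and 2 were brighter than 3 and 4 in both genotypes. Quantile normalization gave a log2 fold change of −0.95 (adjusted p = 0.00595), −1.24 as deposited and 0.70 after median centring.

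AT5G10920, which encodes argininosuccinate lyase of arginine synthesis, was at 1.21, 1.10, 1.39 and 1.53 in WT and 0.467, 0.423, 0.361 and 0.644 in psah2k. Intensities did not overlap, but percentiles did, at 87.7 to 92.9 and 84.3 to 89.8. The log2 fold change was −0.80 (adjusted p = 0.0289), −1.49 as deposited and 0.45 after median centring. Without any one of WT 3, WT 4 or psah2k 1, 2 or 3 it missed the threshold (adjusted p = 0.0541 to 0.0737).

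**Figure D5:**
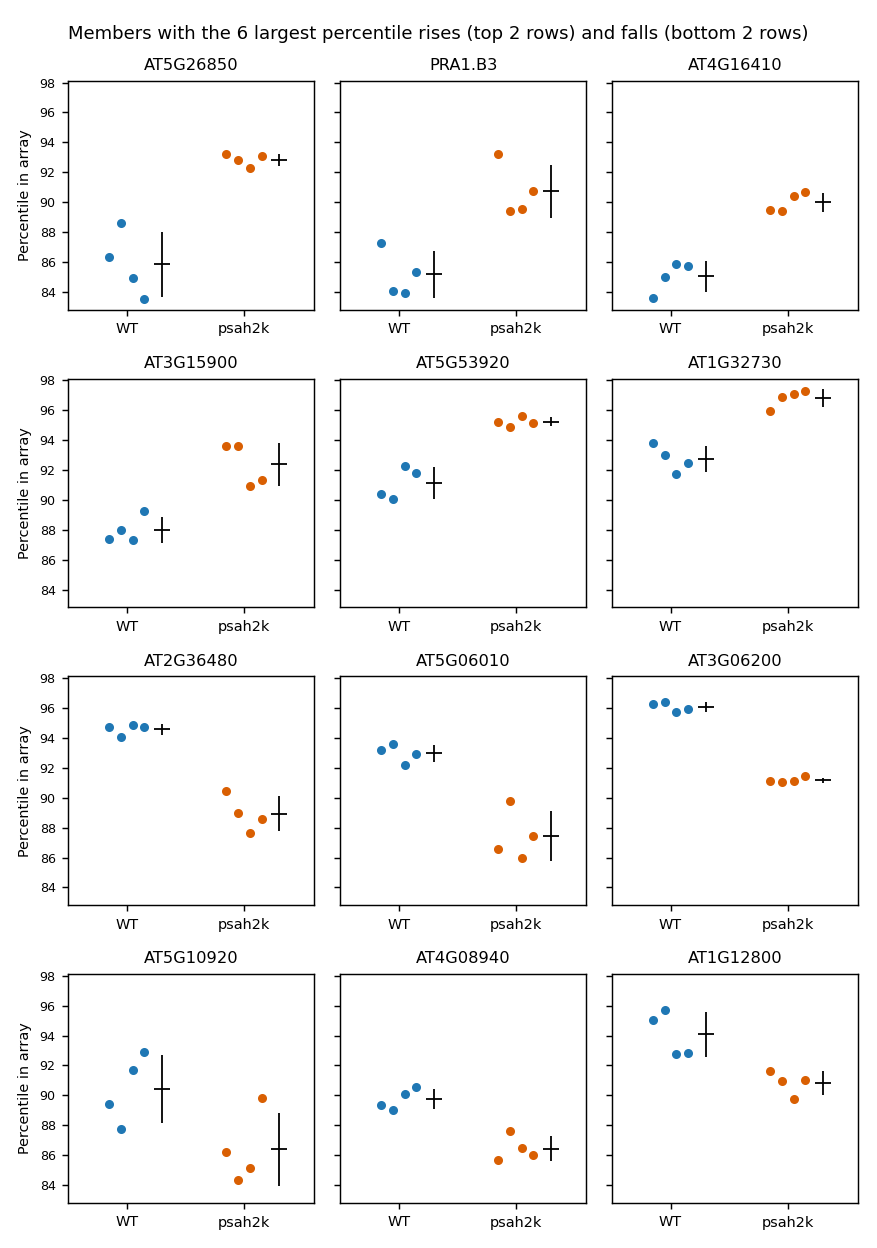
Percentile within the array (y axis, percent of 3439 features) for the genes with the 6 largest rises (upper rows) and the 6 largest falls (lower rows), with 1 point per array in the order of replicate numbers. Blue is WT, orange psah2k, and black bars are mean and SD of 4 arrays. The genotypes are apart in every panel except that of AT5G10920, where psah2k 4 lies within the WT range.

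Other named genes are given by function. Of genes tied to organelles, AT1G76450, a PsbP-domain gene of the thylakoid lumen related to a photosystem II subunit, was at 6.86 ± 0.235 and 5.26 ± 0.315 (log2 −0.73, adjusted p = 0.00897, and 1.55 after median centring). AT4G32060, a regulator of the mitochondrial calcium uniporter, was at 5.49 ± 0.173 and 5.08 ± 1.05 (log2 −0.51, adjusted p = 0.00633, −0.14 as deposited and 1.80 after median centring). AT4G39690, for the MIC60 protein of mitochondrial cristae, was at 2.19 ± 0.190 and 1.46 ± 0.128 (log2 −0.53, adjusted p = 0.0250, and 1.35 after median centring), and missed the threshold without WT 1 or WT 2 (adjusted p = 0.0677 and 0.0694). AT2G19280, a pentatricopeptide repeat gene, was at 2.57 ± 0.241 and 1.85 ± 0.347 (log2 −0.59, adjusted p = 0.00381, and 1.44 after median centring). The uncharacterized AT2G46220 was just past the threshold (log2 −0.70, adjusted p = 0.0499), and missed it without any single array other than WT 3 and WT 4.

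Of genes for sugar and cell wall metabolism, AT1G06730, a pfkB-type carbohydrate kinase, went from 2.65 ± 0.314 to 1.29 ± 0.243, 2.05-fold lower. Its log2 fold change was −1.03 (SE 0.122, limma adjusted p = 0.000341) and −1.05 as deposited, and 0.89 after median centring. Its mean percentile differed by −2.63 points, and it passed with averaged pairs (adjusted p = 0.0208). AT4G18180, of the pectin lyase family, was at −0.60 (adjusted p = 0.0197, and 1.46 after median centring), and missed the threshold without WT 1 or WT 2 (adjusted p = 0.0598 and 0.0544).

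Genes of nuclear functions and signalling come next. AT1G13370, a histone H3 gene, was at 2.42 ± 0.143 and 1.17 ± 0.221, 2.07-fold lower (log2 −0.98, adjusted p = 0.00568, and 0.87 after median centring). AT5G40030, a protein kinase gene, was at 2.41 ± 0.221 and 1.31 ± 0.437. A log2 fold change of −0.90 (adjusted p = 0.0324, and 0.995 after median centring) missed the threshold without any one array other than psah2k 3 and 4. AT5G11010, related to RNA 5′-kinases, was at −0.47 (adjusted p = 0.0268, and 1.52 after median centring), and missed the threshold without WT 1, WT 2 or psah2k 3. CCL, a gene under circadian control, was at 2.93 ± 0.648 and 1.98 ± 0.426 (log2 −0.71, adjusted p = 0.00960, and 1.37 after median centring). The deposited intensities of the genotypes overlapped for AT4G32060, AT2G46220, AT4G18180, AT5G11010 and CCL. With values of 0 kept, their calls were lost (adjusted p = 0.0609 to 0.206). So were those of AT4G39690, AT5G40030 and AT5G10920 (adjusted p = 0.0804 to 0.0993).

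For 6 further genes, none of them called after quantile normalization, the deposited intensities of the genotypes also overlapped. XERICO, a RING-type gene whose product promotes the accumulation of abscisic acid, was at 1.99 ± 0.0620 and 1.70 ± 0.171 (log2 −0.24, adjusted p = 0.146). AT4G29890, related to choline monooxygenases, was at 1.74 ± 0.270 and 1.74 ± 0.215 (log2 0.05, adjusted p = 0.810). AT3G09080, a WD-repeat gene, had −0.02 (adjusted p = 0.882), AT1G51350, an armadillo-repeat gene, −0.27 (adjusted p = 0.202), AT3G04650, an oxidoreductase gene, 0.08 (adjusted p = 0.572), and AT2G46630 −0.22 (adjusted p = 0.127). Under median centring each of these 6 was called higher, with log2 fold changes of 1.66 to 2.13.

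The remaining 11 of the 52 genes had mean intensities between 1.04 and 1.76 in WT and between 0.460 and 1.77 in psah2k. After quantile normalization 0 of them were called higher and 1 lower, beside 26.3% and 26.6% of all tested features. The 1 was AT2G39360, named here after its values were seen (log2 −0.61, limma adjusted p = 0.00941, and 1.08 after median centring). These 11 were left after the genes highest in percentile and those with the largest rises and falls were named, so nothing is read from the counts. Their log2 fold changes ran from −0.61 to 0.43. ATSPS4F, for a sucrose phosphate synthase, IAA31, an auxin response repressor, and CML30, a calmodulin-like gene, were among the 10 not called.

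For the 52 genes, the median SD of log2 intensity over 4 arrays after quantile normalization was 0.14 in WT and 0.14 in psah2k. It was 0.19 and 0.36 among the 1806 features without a 0 on any array. Those features were not matched to the 52 in brightness, whereas the rule asked for bright signals in both genotypes. This comparison therefore cannot separate a trait of these genes from their brightness, and no conclusion is drawn from it. Across the 52 genes, arrays of numbers 1-2 and 3-4 of a genotype resembled each other most, whereas over all features psah2k 1 and 2 (rho 0.758) were no closer than the other psah2k pairs (0.750 to 0.766). Over the 52, which are not independent replicates, Spearman's rho was 0.980 to 0.991 within these WT pairs and 0.955 to 0.966 in the other WT pairs. It was 0.983 to 0.984 and 0.947 to 0.956 in psah2k, and 0.769 to 0.820 between genotypes. With pairs averaged first, 1 of the 52 was called higher and 7 lower, beside 21.9% and 16.7% of the features tested. AT1G32730 was higher, and AT4G31530, AT2G27290, AT4G17070, AT1G06730, AT3G06200, AT2G36480 and AT5G06010 were lower.

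The threshold cut through a continuous range. Just inside it, by the lower of both genotype means, were AT4G16410, PRA1.B3 and AT5G26850 with WT mean percentiles of 85.1, 85.2 and 85.9. Just outside were AT5G27860 with 84.5 in WT and 85.003 in psah2k, AT2G04790 with 84.2 and 87.9, and AT4G09620 with 83.7 and 92.3. AT5G27860 had intensities of 0.862 to 0.939 in WT and 0.327 to 0.540 in psah2k. AT2G04790 was at 0.803 to 1.06 and 0.472 to 0.638, and AT4G09620 at 0.819 to 0.922 and 0.957 to 1.05.

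Of the features over the threshold in WT, 65.0% were also over it in psah2k, and 66.7% the other way round. Among features with 1 gene the shares were 63.8% and 69.8%. Both thresholds were passed by 8.67% of the features with 1 gene, 7.59% of those with several genes and 10.7% of those unnamed here. By locus name, 14 of the 52 genes (26.9%) lay on chromosome 4 and 7 (13.5%) on chromosome 1, against 17.3% and 25.1% of all features with 1 gene, a difference that was not tested. No pair of the 52 were next to each other among the protein-coding genes.

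By the choice of members, none of the 52 belonged to any of 11 gene lists, with 161 entries, for photosystem I and II, antenna, electron carriers, Calvin cycle, photorespiration, chlorophyll synthesis, plastid ribosomes, redox, chaperones and root markers: the list genes past both thresholds (PSAN, PSBY, PSBW, PSB27, LHB1B2, PRK and AT1G74470) are those left out by name. Only 16 entries had a feature of their own, 14 were tested, and 8 were called higher and 3 lower after quantile normalization, beside 26.3% and 26.6% of all tested features. Among the 8, NTRC (log2 −0.65), AT4G01310 (−1.09) and AT3G54210 (−0.30) were below 0 as deposited. The lists were chosen with earlier results of these data known, so nothing is read from these counts. For 4 of the lists, the root markers among them, no gene was tested, so the tissue could not be checked against defining root genes.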

How the data were processed

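The deposited table gives 1 intensity per feature and array, linear, from 0 to about 100. The sources used here do not say how the authors subtracted background or scaled the arrays. Groups and numbers came from the titles, per the labels. Gene names came from GEO's annotation of the platform, which lists 1562 of the 3439, with 692 assigned to 1 gene and 870 to several, and symbols were updated through the TAIR10.1 RefSeq table, where all 52 members matched. No coordinates were used. The members and gene lists were chosen with earlier results of these data known.

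Intensities were log2 transformed with values of 0 as missing, quantile normalized, and fitted with limma 3.58.1 (lmFit, eBayes) in R 4.3.3 where each genotype had 3 or more values. Two-sided p-values were adjusted by Benjamini-Hochberg over all features tested and called at 0.05. The fit was also run on simulated data drawn on the normalized scale, which cannot test the choice of scaling. The number of arrays limits the precision.

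Named were the 30 genes highest by the mean of both genotype percentiles, the 6 largest rises and falls in percentile, and the 3 just inside and just outside the threshold. The 8 highest and the rises and falls were given by array. Same-numbered arrays were not treated as pairs. Alternatives covered the scaling, values of 0, filters, percentile ranks, the variance model, the replicate number as a block, averaged pairs, the percentile rule and each array left out. Figures were drawn with matplotlib 3.10.9.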

Additional observations from a re-analysis of the deposited data

Results flagged for a closer look

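Among 82 groups of 4 arrays (41 named genes in each genotype), 4 normalized log2 values stood apart from the other arrays of their group by Dixon's criterion, about as many as the 1 in 20 that chance flags. AT2G27290 on WT 4 was at 5.58 against a median of 5.39 on the other WT arrays, although its deposited intensity there, 39.6, lay among theirs. AT4G18180 on psah2k 3 was at 1.0006 against 0.90. AT2G36480 on WT 2 was at 0.86 against 1.03, and AT4G08940 on psah2k 1 at −0.79 against −0.59.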

How the results depend on the processing

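Direction depended most on the scaling. After median centring the log2 fold change (psah2k minus WT) changed sign to AT4G22830 2.02, AT4G31530 0.98, AT2G27290 1.73, AT4G17070 2.14, AT4G19900 1.70, AT1G76450 1.55, AT4G32060 1.80, PRA1.B6 1.94, AT2G46220 1.56, AT3G09080 2.13, CCL 1.37, AT1G51350 1.85, AT4G18180 1.46, AT2G19280 1.44, AT5G11010 1.52, AT1G06730 0.89, XERICO 1.70, AT4G39690 1.35, AT5G40030 0.995, AT1G13370 0.87, AT2G46630 1.66, AT3G06200 0.30, AT1G12800 0.70, AT2G36480 0.27, AT5G06010 0.31, AT5G10920 0.45 and AT4G08940 0.54. After upper quartile centring it changed sign to AT4G22830 1.31, AT4G31530 0.28, AT2G27290 1.02, AT4G17070 1.43, AT4G19900 0.99, AT1G76450 0.84, AT4G32060 1.09, PRA1.B6 1.23, AT2G46220 0.86, AT3G09080 1.42, CCL 0.67, AT1G51350 1.14, AT4G18180 0.75, AT2G19280 0.74, AT5G11010 0.82, AT1G06730 0.18, XERICO 0.997, AT4G39690 0.65, AT5G40030 0.29, AT1G13370 0.16 and AT2G46630 0.96. As deposited, the changed signs were AT4G22830 0.085, AT4G17070 0.20, PRA1.B6 0.0018, AT3G09080 0.19, AT3G15900 −0.045, PRA1.B3 −0.21 and AT4G16410 −0.39. When each 0 took the lowest positive value of its array they were AT4G22830 0.070, AT3G09080 0.23 and AT2G46630 0.012, and with a pseudocount of 0.0156 AT4G22830 0.070, AT3G09080 0.23 and AT2G46630 0.012. On percentile ranks, in points, they were AT4G22830 0.015, AT3G09080 0.50 and AT2G46630 0.029. With numbers 3 and 4 alone AT4G22830 was at 0.13, and with numbers 1 and 2 alone AT3G26630 was at −0.019, AT3G09080 at 0.0028 and AT4G29890 at −0.23, both splits having been chosen after seeing the data. With single arrays left out, AT3G09080 ranged from −0.041 to 0.021 (highest without psah2k 3), and AT4G29890 was at −0.042 without WT 3 and −0.00022 without psah2k 4. The 2 centrings differ from the deposited values only by a shift shared by the features of an array, and why the arrays differed was not tested. The cause of the other changes was not tested either.

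Of the 52 genes, 11 were called higher and 22 lower (26.3% and 26.6% of all tested features). The higher and lower counts were 48 and 0 after median centring (34.7% and 16.8%) and 37 and 2 after upper quartile centring (24.1% and 33.6%). They were 14 and 13 with each 0 at the lowest positive value of its array (31.2% and 14.3%), and 7 and 5 on percentile ranks (25.4% and 19.0%). With numbers 1-2 and 3-4 averaged first they were 1 and 7 (21.9% and 16.7%). They were 6 and 25 with numbers 1 and 2 alone (24.2% and 22.7%), and 6 and 9 with numbers 3 and 4 alone (19.6% and 15.6%). With each array left out in turn they were 7 to 10 and 17 to 22 (22.6% to 29.9% and 21.0% to 27.0%). Nothing is read from these counts, since the rule used the levels. The number of genes past the percentile rule was 34 when only features above 0 on all arrays were ranked, since fewer features were then ranked, and 51 to 53 with each array left out. It was 69 with a threshold of 80, 40 with 90, and 46 with every array required to pass.

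Same-numbered arrays of the genotypes had correlations of deviations of 0.0561 to 0.126, not all above 0.1, and were therefore not treated as pairs. As a hint from the data, not the design, 8 of 8 arrays correlated best with their own number. With the replicate number as a block 8 genes were called higher and 17 lower, beside 23.7% and 22.5% of the features tested. The calls lost were those of AT3G06570, AT3G15900 and AT4G16410 as higher. As lower, those of AT2G46220, AT4G18180, AT5G11010, AT4G39690 and AT5G40030 were lost (adjusted p = 0.0506 to 0.0761 over all of these). The number of arrays limits the precision, and the table holds no background signal to set values against.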
